A study of Mus musculus with 6 samples.

Results

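Nanoparticle-positive (NP-positive) tumour endothelium was described here by its absolute transcript levels, from the 3 libraries that carry this label among the 6 libraries of the series. The libraries were chosen by their labels alone and come from tumours MET-106, MET-107, MET-108, with 1 library each. The 3 nanoparticle-negative libraries of the same tumours were not used, and no test between the groups was made. Each tumour grew for 2 weeks from 1000000 4T1 cells, a mouse mammary carcinoma line, placed in the inguinal mammary fat pad of a female Balb/c mouse that was 8 weeks old at implantation. Every mouse received 1e12 gold nanoparticles of 50 nm through the tail vein 1 hour before harvest. The particles were coated with 5 kDa mPEG and labelled with Cy5. Cells were depleted of CD45-positive cells and enriched for CD31-positive cells on magnetic columns, and were then sorted by nanoparticle signal. All of these steps were shared by the 3 libraries, so the profile is that of enriched tumour endothelium that was exposed to particles, and it holds no untreated or tumour-free sample.

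Endothelial cells line blood vessels, hold each other through junctional proteins such as VE-cadherin and CD31, and rest on a basement membrane of type IV collagen, laminin, nidogen and perlecan. Vessel growth in tumours is driven by VEGF signalling through receptors on these cells, is shaped by Notch and angiopoietin signalling, and leaves vessels with fenestrae, caveolae and an activated surface. The identity of the lineage is held by transcription factors of the ETS, SOX and GATA families.

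Levels are given in 2 scales. CPM values are a gene's count over all gene counts of the library, scaled to 1000000, and order genes by their share of the reads. TPM values, on the same scale, first divide by the gene's length, the merged length of its exons as the count files give it, and allow levels to be compared between genes. Where 3 values are given they stand in the order MET-106, MET-107, MET-108, and a mean carries the SD over n = 3 libraries. A gene counted as expressed at 1 TPM or more in 3 of 3 libraries, and genes next to each other in an order were taken as different only where the ranges of their 3 libraries did not overlap. Merged exons can be much longer than the transcript that is made. Where the length of the principal transcript of the annotation moved a named gene by over 1.5 times, that second mean is given without an SD. The second means were scaled anew to 1000000, so a gene of unchanged length, such as Gm42418, fell to 0.718 times its main level. The 1.5 cut was therefore nearer for falls than for rises. A fall below 0.718 times needs a principal transcript longer than the merged exons.

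The libraries held 41830256, 58089600 and 44901340 counts, of which 97.7 ± 0.255% fell in protein-coding genes. A count of 3 corresponded to 0.0717, 0.0516 and 0.0668 CPM, and 1 TPM in a gene of median length corresponded to 47.1, 71.1 and 52.1 counts. The 1106 olfactory receptor genes, which endothelium is not known to use, gave a level of background: 3 of them were expressed, and their mean was 0.0892, 0.279 and 0.159 TPM, highest in MET-107. The 95th percentile of their mean levels was 0.470 TPM.

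The sequences that belong to the leading result are the start regions of Col4a1 and Col4a2, the 2 chains of the common type IV collagen, which were the first and the fourth gene by CPM. They lie head to head on chromosome 8, with Col4a1 (chr8:11198423-11312826, minus strand) and Col4a2 (chr8:11312805-11449287, plus strand) overlapping at their starts in the count files' GRCm38 coordinates. The start sites lie 21 bases apart. The RefSeq windows from 250 bases before to 50 after each start (GRCm38.p6) therefore share 78 bases, shown in capitals. The Col4a1 window is chr8:11312777-11313076 on the minus strand and the Col4a2 window is chr8:11312555-11312854 on the plus strand, each read 5′ to 3′.
Col4a1: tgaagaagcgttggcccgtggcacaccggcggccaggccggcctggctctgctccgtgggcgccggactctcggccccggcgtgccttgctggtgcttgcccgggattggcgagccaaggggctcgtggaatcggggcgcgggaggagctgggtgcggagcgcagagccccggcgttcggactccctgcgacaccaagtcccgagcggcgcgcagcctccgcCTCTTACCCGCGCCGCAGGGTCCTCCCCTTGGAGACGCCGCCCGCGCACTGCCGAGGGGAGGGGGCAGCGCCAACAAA
Col4a2: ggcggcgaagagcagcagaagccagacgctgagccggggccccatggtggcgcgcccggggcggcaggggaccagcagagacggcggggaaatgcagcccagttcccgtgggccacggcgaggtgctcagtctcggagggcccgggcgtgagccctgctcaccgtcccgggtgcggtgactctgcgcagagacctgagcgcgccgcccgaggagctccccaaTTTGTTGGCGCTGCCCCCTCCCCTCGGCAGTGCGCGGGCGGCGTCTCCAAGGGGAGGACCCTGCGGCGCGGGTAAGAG

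A second pair shows endothelial receptor genes with an ETS-type motif, AGGAAG on either strand, in capitals (CTTCCT where it lies on the other strand). Shorter stretches such as GGAA alone were not searched for and are not marked. The Tie1 window is chr4:118489800-118490099 on the minus strand and the Flt1 window is chr5:147725962-147726261 on the minus strand, each with 2 matches.
Tie1: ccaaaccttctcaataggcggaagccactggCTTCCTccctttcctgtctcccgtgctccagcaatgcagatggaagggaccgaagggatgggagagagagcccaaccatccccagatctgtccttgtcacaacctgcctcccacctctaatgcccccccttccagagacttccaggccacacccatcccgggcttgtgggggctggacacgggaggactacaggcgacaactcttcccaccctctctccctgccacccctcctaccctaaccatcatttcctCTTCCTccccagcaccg
Flt1: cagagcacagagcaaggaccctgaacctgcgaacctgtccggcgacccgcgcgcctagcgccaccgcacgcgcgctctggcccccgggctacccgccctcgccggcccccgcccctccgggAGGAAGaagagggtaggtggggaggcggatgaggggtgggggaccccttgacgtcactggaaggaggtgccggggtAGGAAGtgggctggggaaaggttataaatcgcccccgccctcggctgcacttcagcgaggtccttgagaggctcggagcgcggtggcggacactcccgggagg

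Of 24 pan-endothelial markers, 13 had a RefSeq window, and 7 of those 13 held AGGAAG (Tie1, Eng, Emcn, Cd34, Flt1, Egfl7 and Robo4). The motif was present in 35.1% of all 27025 windows, in 33.3% of the 9328 windows of expressed genes and in 38.0% of the 200 windows of the highest genes by TPM. So the letters were about as frequent in expressed genes as in all genes. The GC box, GGGCGG on either strand, was present in 65.1% of windows of expressed genes, in 24.8% of the 10424 windows of genes not expressed and in 35.9% of all windows. TATAAA on either strand was present in 6.82% of expressed and 18.5% of not expressed genes, in 15.5% of the 200 highest and in 14.2% of all. None of the 3 motifs contains another. A match of letters is a description of the window, not a measured binding site.

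The label was checked against endothelial marker genes. All 24 pan-endothelial markers were expressed, and they summed to 18326, 17738 and 17984 TPM. Pecam1, which encodes CD31, the protein used for enrichment, had 3319.7, 2661 and 2881 CPM and 1686, 1244 and 1419.7 TPM, and ranked 14th by CPM. Cdh5, which encodes VE-cadherin, had 373, 426 and 357 TPM. Kdr, the main signalling receptor for VEGF, had 481, 306 and 379.9 TPM, highest in MET-106 and lowest in MET-107. Plvap, the protein of fenestral and caveolar diaphragms, had 1955, 2703 and 2344 TPM, in the opposite order, with MET-107 highest. Within the marker list Plvap and Esam, a junctional adhesion molecule at 2099 ± 97.3 TPM, had overlapping ranges, and both lay above Mcam, the CD146 adhesion molecule at 1504 ± 82.5 TPM. The lowest of the markers were Erg, an ETS factor at 61.7 ± 3.21 TPM, and Sox17, an arterial SOX factor at 38 ± 7.55 TPM. Emcn, the sialomucin endomucin, had 506 ± 25.2 TPM by merged exons and 1447 TPM by its principal transcript.

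Markers of cells outside the endothelium were low in sum beside the pan-endothelial markers. Ptprc, which encodes the CD45 used for depletion, had 0.558, 0.843 and 0.616 TPM (1.88 TPM by its principal transcript), and Epcam, an epithelial adhesion molecule, had 0.445, 1.01 and 0.302 TPM; by merged exons both lay near the olfactory receptor background. The 15 leukocyte markers summed to 71.6, 79.1 and 52.1 TPM with 6 expressed, led by Cd68 at 17 ± 3.87 TPM and Lyz2 at 15.4 ± 8.49 TPM, while Ms4a1, Adgre1 and Itgam stayed under 1 TPM in all libraries. The 11 mural markers summed to 101, 95.2 and 76.3 TPM with 6 expressed, the 11 fibroblast markers to 32.3, 28.0 and 12.9 TPM with 4 expressed (7 at a minimum of 1 CPM and none at 5 TPM), and the 12 epithelial and carcinoma markers to 15.3, 19.3 and 22.5 TPM with 2 expressed. The 10 platelet and erythroid markers summed to 68.8, 65.5 and 38.0 TPM with 7 expressed (3 at 1 CPM and 2 at 5 TPM), led by haemoglobin genes, and the 6 adipocyte markers to 1.72, 4.35 and 3.70 TPM with none expressed in 3 of 3 libraries. Krt5, a basal keratin, was at 0 counts in MET-106 and MET-107, and Adipoq, adiponectin, in MET-106. Of 7 lymphatic endothelial markers 6 were expressed, or 3 at 5 TPM. Lyve1 had 78 ± 18.8 TPM, Flt4 66.1 ± 2.53 TPM and Mmrn1 a mean of 50.3 TPM. In every library these 3 lay above 16.2 TPM, the median level of an expressed gene. Prox1, the lymphatic master factor, had 4.7 ± 0.732 TPM. In these bulk libraries fewer cells of a type and less RNA per cell cannot be told apart.

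Transcripts spread over many genes. By the rule above 13342 of 43110 genes of at least 200 bases (30.9%) were expressed, 11265 of them protein-coding, which is 51.8% of the protein-coding genes, and the median level of an expressed gene was 16.2 TPM. Between 134 and 137 genes per library reached 1000 TPM, and between 1822 and 1919 reached 100 TPM. The counts were not concentrated in a few genes: 771, 757 and 761 genes held the first 50% of the counts, and the 10 highest genes held 5.72 ± 0.172%.

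**Figure D1:**
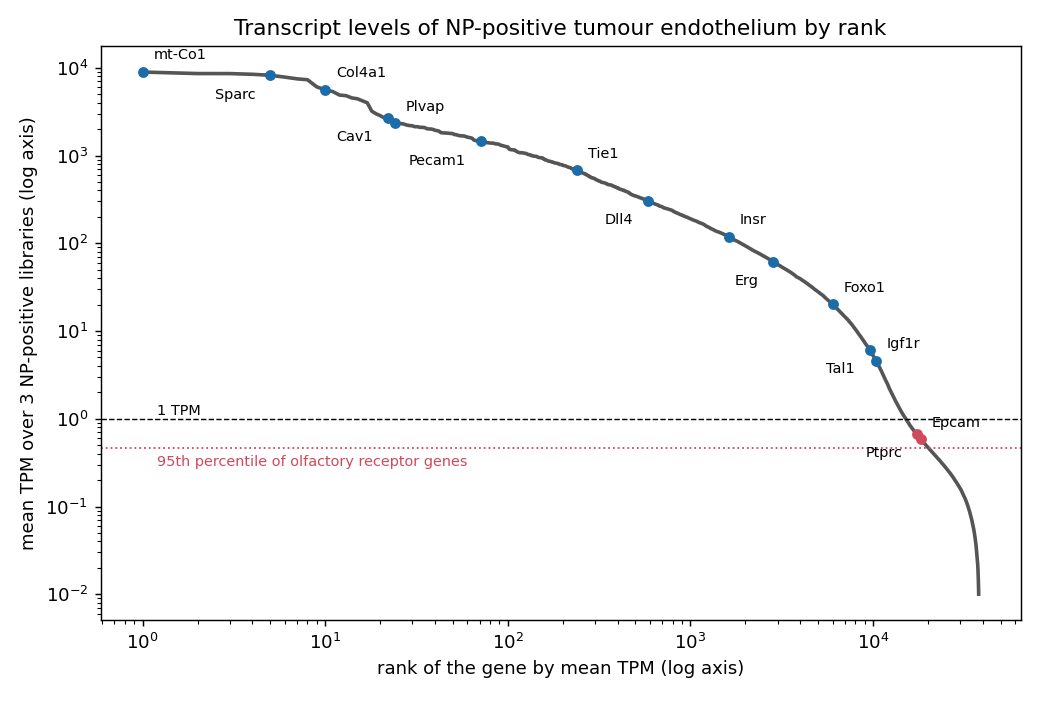
Mean TPM over the 3 NP-positive libraries against the rank of the gene, both on log axes; blue points are named endothelial and reference genes, red points are Ptprc and Epcam. The dashed line is 1 TPM and the dotted line is the 95th percentile of olfactory receptor genes, 0.470 TPM; Ptprc and Epcam lie between them, while Sparc, Col4a1, Cav1 and Plvap lie among the 24 highest genes.

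By read share, vessel wall and basement membrane genes led. Col4a1, the alpha 1 chain of type IV collagen, was the first gene at 15473, 12082 and 13532 CPM. Sparc, a matricellular protein that binds collagen, was the second at 10071, 10929.9 and 9676 CPM, and its libraries lay below every Col4a1 library. Col4a2, the alpha 2 chain, was the fourth at 5171, 5051 and 4649 CPM. Together Col4a1, Col4a2 and Sparc took 3.07, 2.81 and 2.79% of all counts. Col18a1, the collagen that holds the endostatin fragment, was the 17th at 2705 ± 315 CPM. The rest of the 20 highest included a class I antigen-presenting molecule (H2-D1), genes of the cytoskeleton and membrane linkers (Tmsb4x, Actg1, Msn, Vim, Anxa2), Cav1 and Pecam1. Genes of general cell machinery (Eef1a1, Pkm, Hspa5, B2m, mt-Co1, mt-Cytb) were there as well. Gm42418, annotated as a lincRNA and known to overlap ribosomal RNA sequence, was also among them.

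By TPM the order moved to short transcripts. The 50 highest genes by CPM and the 50 highest by TPM shared 31 genes, and their median lengths were 3599 and 1756 bases, against 3560.5 bases for expressed genes. B2m, the light chain of class I molecules, rose from rank 20 by CPM to rank 2 by TPM at 6892, 11218 and 7680.0 TPM. Ifitm3, an interferon-induced membrane protein, reached rank 6 at 7836 ± 1032 TPM, and Tmsb4x, the actin-sequestering thymosin beta 4, had 8593 ± 618 TPM. S100a11, a calcium-binding protein, moved from rank 318 to 20, and Atox1, a copper chaperone, from 489 to 41. In the other direction Hspg2, the long transcript of perlecan, moved from rank 84 by CPM to 765 by TPM. Sparc stayed in the first 5 on either scale and Col4a1 in the first 10. Also high by TPM were Ctla2a, a cysteine protease inhibitor, at 4174, 4026 and 5405 TPM, and Lrg1, a secreted leucine-rich glycoprotein that acts on TGF-beta signalling in vessels, at 3572, 2300.0 and 3728 TPM. Fth1, the ferritin heavy chain, had 4888 ± 226 TPM by merged exons and 2033 TPM by its principal transcript.

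Some of the highest genes are uncertain because reads can map to several places, and how such reads were treated is not given in the sources used here. Gm10800, a predicted gene on chromosome 2, was the fourth by TPM at 4242, 12613 and 8438 TPM and differed 3.23-fold between libraries by CPM. Among mitochondrial genes, mt-Co1 had 8947 ± 898 TPM, mt-Cytb 7488 ± 1474 TPM and mt-Nd1 7314 ± 1759 TPM. In contrast mt-Co2 was listed at 2.8 ± 0.509 TPM, mt-Co3 at 6.79 ± 0.663 TPM and mt-Atp6 at 5.93 ± 1.14 TPM. All of them lie on 1 circular genome, and the cause of the difference was not tested. Mitochondrially encoded genes took 1.19 ± 0.257% of counts.

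In the surface protein lists, 210 of 305 genes were expressed (68.9%, against 51.8% of protein-coding genes). A mean of at least 100 TPM was reached by 87 of them, against 1834 of 21737 protein-coding genes, and 12 reached 1000 TPM. These lists also hold cytosolic proteins of the membrane coat, among them Cavin1 and Ehd2. The 51.8% is the share to set beside the counts of expressed list members that follow. The tyrosine kinase receptors of the VEGF and angiopoietin systems were led by Tie1, the orphan partner of Tie2, at 771, 566 and 694 TPM. Every library of Tie1 lay above every library of Kdr, and Kdr overlapped with Tek, the angiopoietin receptor Tie2, at 359, 263 and 295 TPM. The decoy and signalling receptor Flt1 had 220.4, 247 and 290.1 TPM. The ratio of Kdr to Flt1 was 2.18, 1.24 and 1.31, highest in MET-106, whereas the ratio of Tie1 to Tek was nearly constant at 2.14, 2.15 and 2.36. Kit, the stem cell factor receptor, followed at 153 ± 36.3 TPM and Flt4, the VEGF-C receptor, at 66.1 ± 2.53 TPM. The PDGF receptors of mural cells and fibroblasts were low, with Pdgfrb at 4.61, 3.08 and 0.624 TPM and Pdgfra at 0.521, 0.355 and 0.13 TPM.

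Other growth factor receptors were fewer. Insr, the insulin receptor, had 118 ± 10.8 TPM, above Fgfr1 at 32.2 ± 2.39 TPM, Erbb2 at 20.9 ± 1.87 TPM and Met, the HGF receptor, at 14.5 ± 3.19 TPM. Igf1r, the IGF-1 receptor, had 4.57 ± 0.400 TPM. Of 22 Eph receptors and ephrins 8 were expressed. Efna1, a membrane-anchored ephrin, led at 555, 550.4 and 536 TPM, and Ephb4, the venous receptor, had 102, 119.6 and 97.2 TPM. Its arterial ligand Efnb2 had 8.53, 11.6 and 6.92 TPM, below every Ephb4 library. Among guidance receptors Robo4, the endothelial Robo, had 403 ± 49.8 TPM and Nrp1, a VEGF and semaphorin co-receptor, 168 ± 22.4 TPM (329 TPM by its principal transcript). Dll4, the Notch ligand of tip cells, had 352, 231 and 335 TPM, above all other Notch receptors and ligands. The receptor Notch1 had 44.4, 44.4 and 46 TPM, Jag2 28.5 ± 2.36 TPM (16.3 TPM by its principal transcript), Notch4 27.5 ± 5.58 TPM and Jag1 12.7 ± 1.33 TPM.

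**Figure D2:**
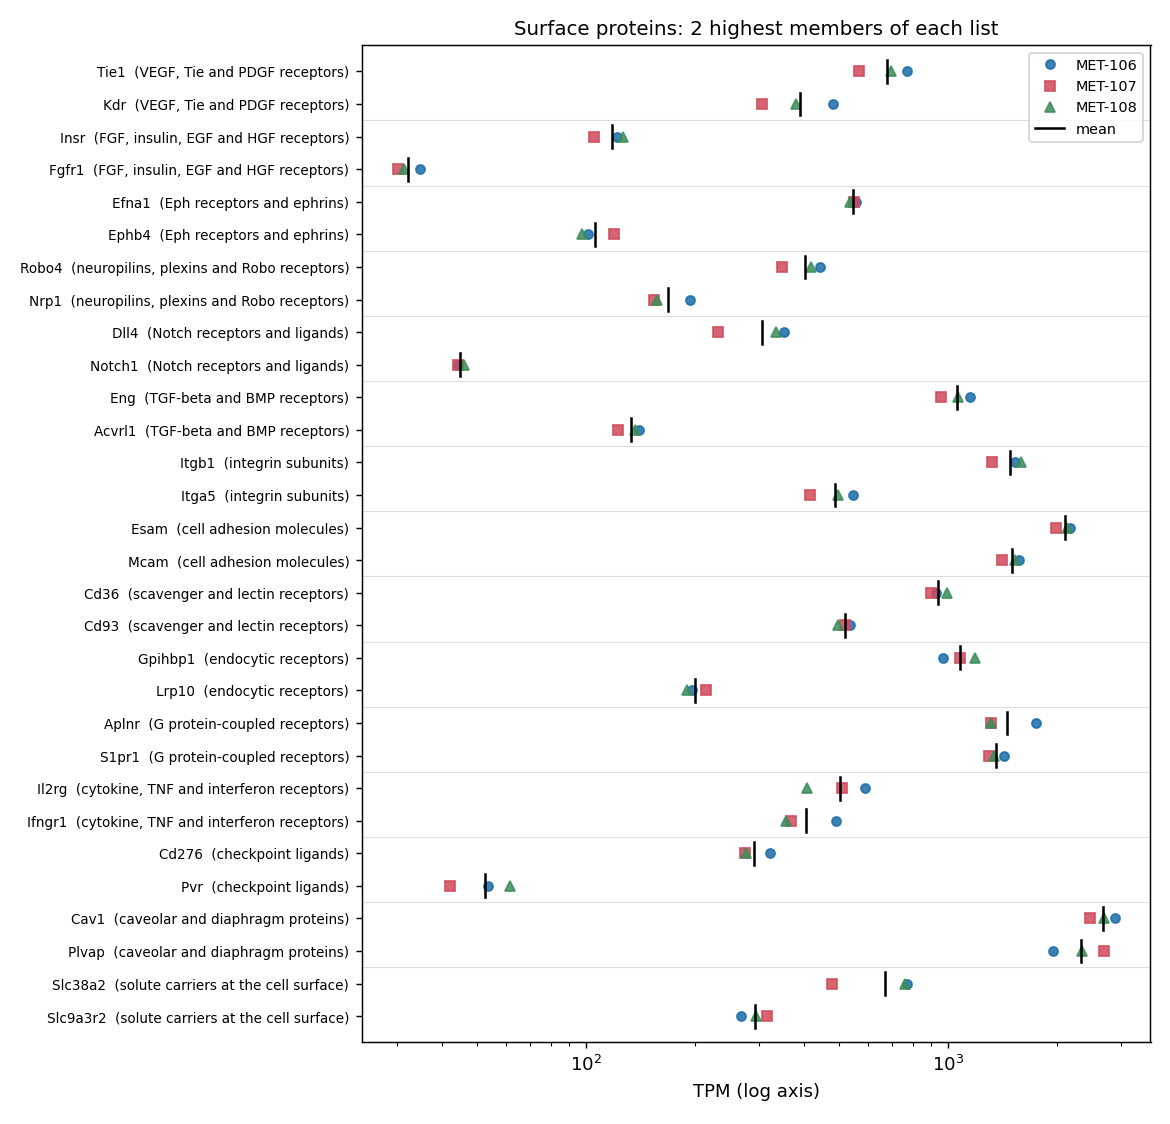
TPM (log axis) of the 2 highest members of each surface protein list, with 1 point per NP-positive library and a bar at the mean. Cav1, Plvap and Esam lie near or above 2000 TPM, and the 3 libraries of most genes lie close together, with Plvap highest and Tie1, Kdr and Dll4 lowest in MET-107.

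TGF-beta family receptors were led by Eng, the co-receptor endoglin, at 1148, 957 and 1063 TPM. Acvrl1, the endothelial type I receptor ALK1, had 133 ± 9.19 TPM, and Tgfbr2 had 131 ± 31.1 TPM (222 TPM by its principal transcript), with overlapping ranges. Tgfbr1, the type I receptor ALK5, had 25.2 ± 3.24 TPM, below every Acvrl1 library. Integrins followed an order in which Itgb1, the common beta chain, had 1527, 1323 and 1586 TPM. Its level was 1.83, 1.84 and 1.94 times the sum of all measured alpha chain genes. Itga5, the fibronectin receptor chain, had 487 ± 66.7 TPM and Itgb3, the partner of alpha V in the vitronectin receptor, 258 ± 21.6 TPM. Itgav itself had 10.7 ± 1.08 TPM, below every Itgb3 library. Itga1 and Itga2, collagen receptor chains, had 76.4 ± 1.24 TPM and 40 ± 2.05 TPM (29.9 TPM and 17 TPM by their principal transcripts).

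Adhesion molecules included 24 of 29 expressed genes. F11r, the junctional adhesion molecule JAM-A, had 1281 ± 25.2 TPM. Selp, the P-selectin of Weibel-Palade bodies, had 1471, 933 and 650.1 TPM, and Icam1, a ligand for leukocyte integrins, had 758, 585 and 432 TPM, both highest in MET-106 and lowest in MET-108. Sele, the E-selectin, had 152, 59.3 and 77.4 TPM, and Vcam1 114, 113 and 74.9 TPM (185 TPM by its principal transcript). Cldn5, a tight junction claudin, had 597 ± 52.2 TPM, and Cd34 had 769 ± 101 TPM (1639 TPM by its principal transcript).

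Proteins tied to uptake and transport were among the highest surface genes. Cav1, the coat protein of caveolae, had 2886, 2473 and 2692 TPM, with an overlap with Plvap. Cavin3 had 915 ± 81.6 TPM, Cavin1 673 ± 22.5 TPM and Cav2 519 ± 26.6 TPM, and the caveolar neck ATPases Ehd4 and Ehd2 had 492 ± 76.3 TPM and 371 ± 44.3 TPM. Of 12 caveolar and diaphragm genes 10 were expressed, all with a mean of at least 100 TPM. The muscle form Cavin4 had 0.15 ± 0.136 TPM. The highest gene of the clathrin route was Ap2m1, a subunit of the AP-2 adaptor, at 366 ± 18.3 TPM, below every Cavin1 library. Clta had 274 ± 13.7 TPM, Cltc, the clathrin heavy chain, 225 ± 36.6 TPM and Dnm2, the dynamin that cuts vesicles, 156 ± 15.8 TPM. Cd36, a fatty acid scavenger receptor, had 928, 897 and 990.2 TPM. Cd93 had 518 ± 19.9 TPM, Scarb1, the HDL receptor, 321 ± 51.3 TPM (775 TPM by its principal transcript), Scarf1 247 ± 35.6 TPM and Stab1, a clearance receptor, 94.8 ± 9.38 TPM. Gpihbp1, the capillary anchor of lipoprotein lipase, had 969, 1082 and 1185 TPM (2397 TPM by its principal transcript). Fcgrt, the neonatal Fc receptor, had 188 ± 9.42 TPM, whereas Tfrc, the transferrin receptor, had 12.8 ± 2.22 TPM. These levels describe sorted cells only, and their relation to particle uptake was not tested.

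Of 46 G protein-coupled receptors 31 were expressed. Aplnr, the apelin receptor, had 1746, 1311 and 1318 TPM, and S1pr1, the sphingosine-1-phosphate receptor, had 1429.9, 1296 and 1338 TPM, with overlapping ranges. Below both lay Adgrl4 (ELTD1) at 765 ± 71.3 TPM and Ackr1, the venular chemokine-binding receptor, at 946, 601 and 621 TPM. Adgrf5 followed at 416 ± 46.4 TPM and F2r, the thrombin receptor PAR1, at 411 ± 64.6 TPM. Calcrl, the adrenomedullin receptor, had 182 ± 22.6 TPM, and its partner Ramp2 had 467 ± 28.3 TPM (939.8 TPM by its principal transcript). Of 33 cytokine, TNF and interferon receptors 32 were expressed: Il2rg, the common gamma chain, had 589.6, 508 and 408 TPM, Ifngr1, an interferon gamma receptor chain, 489, 368 and 356 TPM, and Tnfrsf1a, the TNF receptor 1, 331 ± 20.5 TPM. Among checkpoint ligands Cd276 (B7-H3) had 323, 275 and 277 TPM, while Cd274, which encodes PD-L1, had 18.7, 23.9 and 23.1 TPM. Cd80 and Cd86, the costimulators of antigen-presenting cells, had 0.667 ± 0.0607 TPM and 0.655 ± 0.265 TPM. The highest transporters were Slc38a2, an amino acid carrier, at 769.5, 478 and 760.1 TPM and Slc2a1, the glucose carrier GLUT1, at 225, 192 and 261 TPM.

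Of 373 genes in the secreted protein lists, 191 were expressed (51.2%), about the 51.8% of protein-coding genes. A mean of at least 100 TPM was reached by 62 of the 373, against 1834 of 21737 protein-coding genes. These lists also hold membrane and intracellular proteins, among them Mmp14, Thbd, Anxa2 and Serpinh1, so the counts are not of secreted proteins alone. Type IV collagen stood far above other collagens per length as well as by reads: Col4a1 had 6558, 4711 and 5564 TPM, Col4a2 2471, 2221 and 2156 TPM and Col18a1 1379.5, 1022 and 1132 TPM. Col15a1, a vascular basement membrane collagen, had 79.7 ± 26.8 TPM, and 11 of 44 collagen genes were expressed, with 20 at a minimum of 1 CPM and 6 at 5 TPM. The fibrillar collagen Col3a1 had 10.7, 5.73 and 1.71 TPM and Col1a1 had 1.91, 1.03 and 0.542 TPM. The TPM ratio of Col4a1 to Col4a2 was 2.65, 2.12 and 2.58 (mean 2.45 ± 0.289); the assembled molecule holds more alpha 1 than alpha 2 chains. The 2 genes share the start region shown above, but their levels per length differed in every library. Among linkers of the basement membrane, Nid1 and Nid2, the nidogens, had 679, 507 and 653 TPM and 699.6, 505 and 562 TPM, with overlapping ranges. The laminin chains had 308 ± 43 TPM for Lamb1, 241 ± 30.5 TPM for Lama4, 88.4 ± 21.7 TPM for Lamc1 and 53.4 ± 8.78 TPM for Lama5. Lama4 was 4.35, 4.49 and 4.76 times Lama5, the other endothelial alpha chain. Hspg2, which encodes perlecan, had 242 ± 39.2 TPM.

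Matricellular proteins were led by Sparc at 8411, 8398 and 7840.4 TPM, which lay far above Ccn1 (CYR61) at 2234, 1456 and 2384 TPM. Ccn2 (CTGF), like Ccn1 a target of mechanical signalling, had 1026, 813 and 1389 TPM, and Thbs1, the angiogenesis inhibitor thrombospondin 1, 479, 283 and 632 TPM. Ccn1, Ccn2 and Thbs1 were each lowest in MET-107. Sparcl1 had 1622 ± 99.6 TPM, and Egfl7 722, 931 and 856 TPM (1546 TPM by its principal transcript). Igfbp7, an IGF-binding protein of the tumour vessel wall, had 1008, 2118 and 1096 TPM, and Igfbp3 had 327, 626 and 440.3 TPM. Both were highest in MET-107. Esm1, the tip cell proteoglycan endocan, had 221 ± 26.6 TPM, and Fn1, fibronectin, 166 ± 15.9 TPM.

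**Figure D3:**
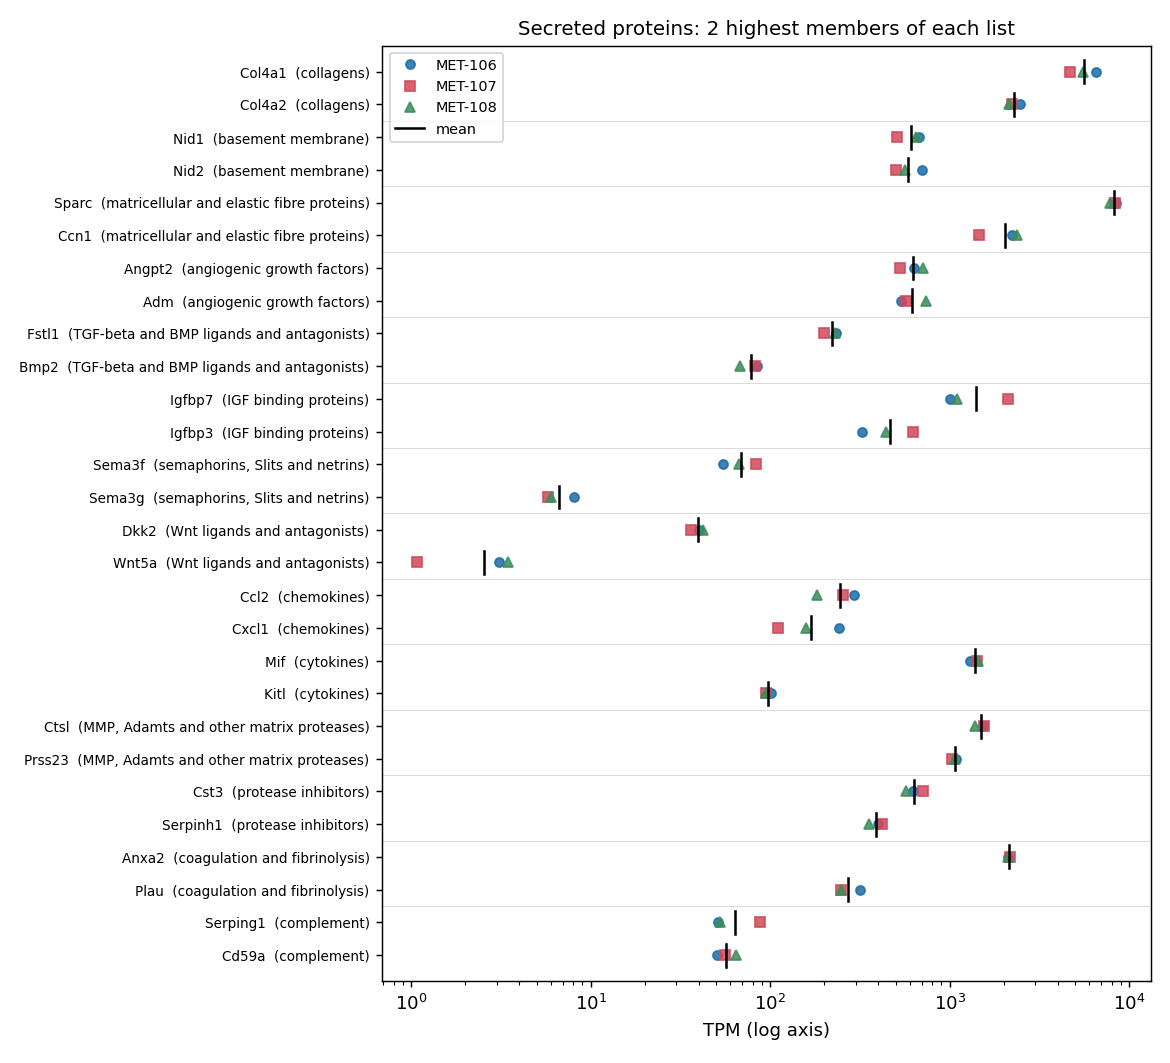
TPM (log axis) of the 2 highest members of each list of secreted proteins, with 1 point per NP-positive library and a bar at the mean. Sparc and Col4a1 lie furthest to the right, and the 3 libraries of Igfbp7 and Cxcl1 are spread more widely than those of Sparc.

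Among 32 angiogenic factors 8 had a mean of at least 100 TPM. Angpt2, the Tie2 ligand stored in Weibel-Palade bodies, had 635, 529.7 and 713 TPM, Adm, adrenomedullin, 537, 573 and 736 TPM, Apln, apelin, 459, 474 and 614 TPM and Pgf, placental growth factor, 457, 414 and 573 TPM. All 4 were highest in MET-108, and their ranges overlapped with those next to them. Angpt2 was 1.77, 2.01 and 2.42 times its receptor gene Tek, and Apln was 0.263, 0.362 and 0.466 times its receptor gene Aplnr. Edn1, the vasoconstrictor endothelin 1, had 258, 186 and 367 TPM, and Pdgfb, which recruits pericytes, 45.4, 56.5 and 46.6 TPM. Vegfa itself had 2.86, 2.77 and 4.82 TPM (16.4 TPM by its principal transcript). Fstl1, a follistatin-like protein, led the TGF-beta and BMP list at 222 ± 18.5 TPM. The list also held Bmp2 at 84.8, 82.2 and 68.2 TPM, Bmp4 at 32.2, 28.2 and 60.8 TPM and Tgfb1 at 9.62 ± 1.57 TPM (16 TPM by its principal transcript). Of 33 Wnt ligands and antagonists 4 were expressed, and Dkk2, an antagonist of Wnt co-receptors, had 40.4, 36.4 and 42.5 TPM against 2.54 ± 1.27 TPM for Wnt5a.

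Of 36 chemokines 17 were expressed. Ccl2, which draws monocytes, had 294, 256 and 181 TPM, and Cxcl1, which draws neutrophils, 241, 111 and 158 TPM. The interferon-induced ligands of the receptor CXCR3 had 46.2, 171 and 65 TPM for Cxcl9, 81.9, 208 and 78.4 TPM for Cxcl10 and 28.4, 93.9 and 27.9 TPM for Cxcl11. All 3 were highest in MET-107. Among cytokines Mif, the macrophage migration inhibitory factor, had 1305, 1422 and 1438 TPM, far above Kitl, the ligand of Kit, at 96.8 ± 3.46 TPM. Csf3 had 71.2, 40.5 and 66.6 TPM and Il6 58.2, 36.9 and 30.2 TPM (63.8 TPM by its principal transcript).

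Matrix proteases were expressed in 26 of 46 cases. Ctsl, cathepsin L, had 1537, 1554 and 1383 TPM by merged exons and 342 TPM by its principal transcript, so its place depends on the length used. Prss23, a serine protease, had 1091, 1028 and 1079 TPM and Ctsb, cathepsin B, 982 ± 61.2 TPM. Adamts4 and Adamts1, which cut proteoglycans, had 709 ± 58.5 TPM and 379.6 ± 71.3 TPM, above Mmp14, the membrane protease of endothelial sprouting, at 179, 239 and 195 TPM. Mmp2 had 7.29 ± 0.253 TPM. Inhibitors were led by Cst3, cystatin C, at 635 ± 72.7 TPM. Timp1 and Timp3 had 251 ± 32.4 TPM and 183 ± 29.1 TPM. In the coagulation list Anxa2, which binds plasminogen activator, had 2122, 2159.8 and 2112 TPM (3944 TPM by its principal transcript). Plau, urokinase, had 273 ± 40.1 TPM, Thbd, thrombomodulin, 141 ± 19 TPM, Procr, the protein C receptor, 199 ± 12.6 TPM, and Vwf, von Willebrand factor, 153, 90 and 154 TPM. In the complement list Serping1, the C1 inhibitor, had 51.5, 87.6 and 52.9 TPM, a range that overlapped with that of Cd59a, an inhibitor of the membrane attack complex, at 50.3, 56.1 and 64.3 TPM.

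Of 330 genes in the transcription factor lists 197 were expressed (59.7%, against 51.8% of protein-coding genes). These lists also hold cofactors and inhibitors, among them Nfkbia, Ctnnb1, Id3 and Ldb2, and the early response gene Ier3. So the counts are not of transcription factors alone. A mean of at least 100 TPM was reached by 36 of the 330, against 1834 of 21737 protein-coding genes. The median of those expressed was 19.0 TPM, against 21.3 TPM for expressed protein-coding genes. It was 45.7 TPM in the surface lists and 37.6 TPM in the secreted lists. ETS factors were expressed in 17 of 26 cases. Ets1 had 398, 314 and 357 TPM, Elk3 294, 273 and 296 TPM and Fli1 259, 241 and 258 TPM, and the ranges of these 3 did not overlap. Ets2 had 184 ± 32.2 TPM, and Erg, a keeper of endothelial identity, 62.7, 64.3 and 58.1 TPM. So Erg, a common endothelial marker, was present at lower transcript levels than 4 of its relatives, in every library.

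Of 19 SOX genes 5 were expressed, and Sox18 had 1048, 1165 and 1180.2 TPM, far above Sox7 at 272, 178 and 238 TPM and Sox17 at 31.8, 46.4 and 35.8 TPM. These 3 are the F group of the family, which acts in vessels; the ranges of the 3 did not overlap. Klf6 and Klf10, which respond to injury and TGF-beta, had 415 ± 71.2 TPM and 312, 288 and 305 TPM. The flow-induced factors Klf2 and Klf4 had 24.9, 34.6 and 26.4 TPM and 26.2, 28 and 23.9 TPM. In the GATA, TAL and LMO list Ldb2, an adaptor of LIM proteins, had 187 ± 9.5 TPM, Lmo2 45.8 ± 10.1 TPM, Gata2 38.8 ± 5.48 TPM and Tal1 6.14 ± 0.635 TPM. Among forkhead factors Foxo1 had 22, 20.5 and 18 TPM and Foxn3 18.8, 18.5 and 18.5 TPM, with overlapping ranges. Homeobox factors included Meox1 at 367, 309 and 267 TPM, Meox2 at 213, 138 and 190.3 TPM and Hhex at 124, 82 and 112 TPM. Of 39 HOX genes 19 were expressed, with Hoxd10 first at 168, 141 and 134 TPM and Hoxb7 next at 69.3 ± 8.91 TPM.

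**Figure D4:**
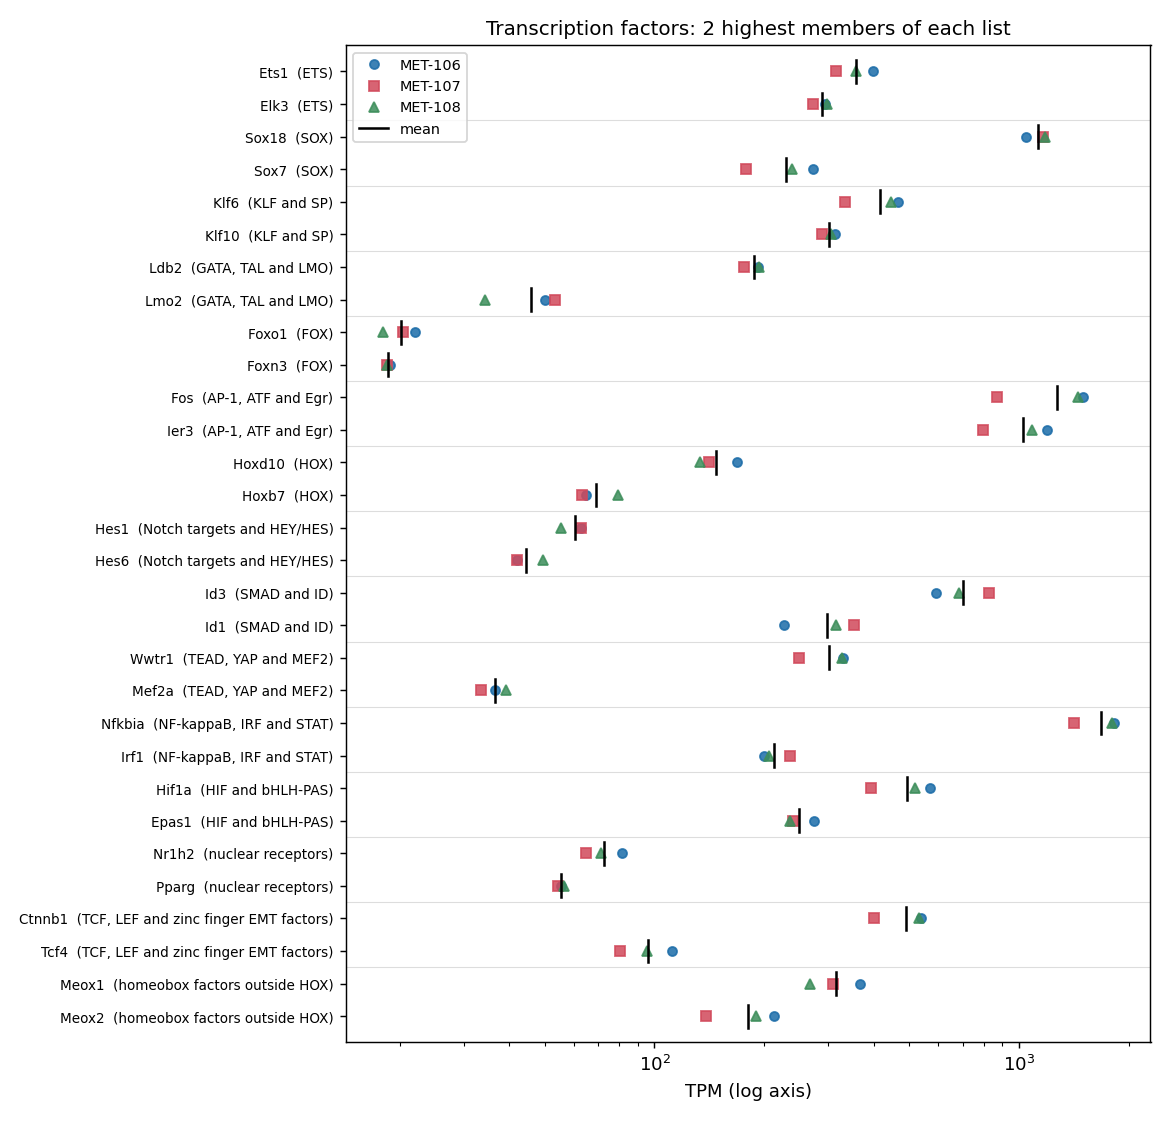
TPM (log axis) of the 2 highest members of each transcription factor list, cofactors and inhibitors included, with 1 point per NP-positive library and a bar at the mean. The means of Nfkbia, Fos, Sox18 and Ier3 lie above 1000 TPM, while the leading FOX genes lie near 20 TPM. MET-107 is lowest for Fos, Ier3 and Nfkbia, and its points for Fos and Ier3 lie below 1000 TPM.

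Factors of the AP-1, ATF and Egr list are known to be induced within minutes by growth and stress signals. Fos had 1500.3, 870.3 and 1451 TPM, Jun 1054, 535 and 959.8 TPM, Junb 851, 543 and 848 TPM and Ier3, an early response gene listed with them, 1194, 798 and 1084 TPM. Each was lowest in MET-107, and 27 of 31 genes of this list were expressed, with a median of 27.1 TPM. Nfkbia, the inhibitor that NF-kappaB induces, had 1822, 1412 and 1799 TPM, and Rela 89.8 ± 7.63 TPM. Irf1, an interferon regulatory factor, had 199, 235 and 206 TPM and Stat6 185 ± 28.7 TPM. Hif1a, the hypoxia factor, had 572, 391 and 518 TPM, above every library of its endothelial relative Epas1 (HIF-2 alpha) at 274, 239.5 and 235 TPM. Both proteins are known to be controlled mainly by degradation. Id3 and Id1, targets of BMP signalling, had 594, 826 and 684 TPM and 227, 353 and 315 TPM, both highest in MET-107. Smad1, the BMP effector, had 169.8 ± 8.69 TPM, and Smad2, the TGF-beta effector, 44.2 ± 6.04 TPM (13.9 TPM by its principal transcript). Wwtr1 (TAZ) had 329, 249.7 and 327 TPM, while its relative Yap1 had 4.52, 5.67 and 5.21 TPM (8.29 TPM by its principal transcript). The Notch targets Hes1 and Hey1 had 60.4 ± 4.29 TPM and 40.7 ± 3.81 TPM, and Hey2 0.206 ± 0.107 TPM. Ctnnb1, beta-catenin, had 490.0 ± 77.2 TPM. Among nuclear receptors Nr1h2 (LXR beta) had 72.6 ± 8.27 TPM and Pparg 55.4, 54.5 and 56.4 TPM.

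The 3 tumours gave similar profiles. Pairs of libraries correlated across the 13342 expressed genes at Pearson's r = 0.984, 0.990 and 0.987 of log2 CPM; genes are not independent replicates, and the r values describe likeness only. The common biological coefficient of variation of edgeR, the spread between the 3 libraries beyond counting error, was 0.224 over 16765 genes, and the median of the values per gene was 0.186. Of 8904 genes with a mean of at least 10 CPM, the median ratio of the highest to the lowest library was 1.22, and 147 (1.65%) differed more than 2-fold. Among the 3181 genes between 1 and 5 CPM the share was 34.1%. By CPM 619 of these 1086 genes were highest in MET-107, against 5244 of all 13342 expressed genes. MET-107 also had the highest olfactory receptor level, whose part in this was not tested.

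The 10 widest ratios were of 4 MHC class II genes, Rgs5, Col3a1, Cxcl9, Timp4 and 2 processed pseudogenes. H2-Eb1, a chain of MHC class II, had 1.86, 20 and 8.24 CPM, a 10.7-fold range. Cd74, the invariant chain, had 18.2, 139 and 62.5 CPM, H2-Ab1 24.5, 113 and 55.5 CPM and H2-Aa 6.22, 24.4 and 8.95 CPM. All of these followed the order MET-107, MET-108, MET-106. Together the 4 genes summed to 103.5, 576 and 276 TPM. The sum of the leukocyte markers was 71.6, 79.1 and 52.1 TPM, with Ptprc at 0.558, 0.843 and 0.616 TPM. The 6 expressed leukocyte markers had a median ratio of 1.98, against 1.28 for all expressed genes. These ratios were not adjusted for level: the median level was 8.79 TPM for the 6 markers and 16.2 TPM for all expressed genes. Of these 6 markers 4 were highest in MET-107 by CPM, against 5244 of all 13342 expressed genes. The part of such cells in the result was not tested. Cxcl9 had 44.1, 177 and 63.9 CPM, and Cxcl9, Cxcl10 and Cxcl11 summed to 156.5, 473 and 171 TPM. Class I genes (H2-D1, H2-K1 and B2m) summed to 14117.5, 20121 and 15671 TPM, also highest in MET-107. Rgs5, a pericyte gene, had 15, 14 and 1.83 CPM, an 8.21-fold range, and Col3a1 33.2, 19.3 and 5.46 CPM, both lowest in MET-108. The mural and fibroblast marker sums were lowest in MET-108 as well, and their part was not tested. The other genes among the 10 widest were Timp4, lowest in MET-106 at 5.4, 18.4 and 22.8 CPM, and the processed pseudogenes Rps19-ps6 and Gm13456, whose reads may not be separable from those of their parent genes.

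**Figure D5:**
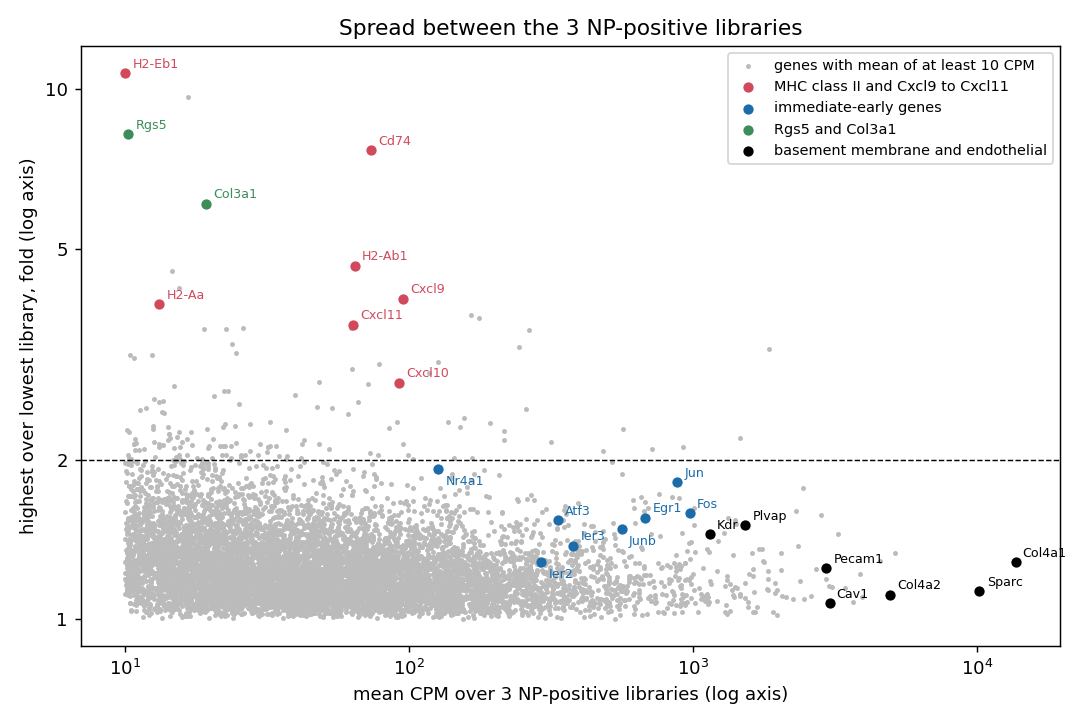
Ratio of the highest to the lowest NP-positive library against mean CPM for genes with a mean of at least 10 CPM, both on log axes; the dashed line marks 2-fold. MHC class II genes, Cxcl9 to Cxcl11, Rgs5 and Col3a1 stand above the line, whereas Col4a1, Col4a2, Sparc, Pecam1, Plvap, Cav1, Kdr and the immediate-early genes lie below it.

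Groups of genes differed in how closely the tumours matched. The median ratio was 1.28 for all expressed genes and 1.25 for protein-coding ones. It was 1.14 for caveolar and diaphragm genes, 1.17 for ETS factors and 1.16 for the actin cytoskeleton. It was 1.53 for AP-1, ATF and Egr genes and 2.15 for the 17 expressed chemokines. Of these chemokines 11 were over 2-fold, against 1065 (7.98%) of all expressed genes and 4.43% of protein-coding ones. The ratio also depended on level: its median was 1.70 for all genes between 1 and 5 CPM and 1.18 for those between 100 and 500 CPM. The expressed chemokines had a median of 10.4 TPM, whereas the expressed caveolar and diaphragm genes all had a mean of at least 100 TPM. The group values were not adjusted for level. The sum of 8 immediate-early genes (Fos, Jun, Junb, Egr1, Atf3, Ier2, Ier3 and Nr4a1) was 6606, 4000.0 and 6140.5 TPM. By CPM, proliferation genes were highest in MET-106 for 22 of 24 members, against 3880 of the 11265 expressed protein-coding genes. They summed to 1709.6, 1245 and 1127 TPM. Mki67, a marker of cycling cells, had 30.9, 20.9 and 14.6 TPM, and Top2a 42.8, 25.5 and 18.1 TPM. Among genes with a mean of at least 100 CPM, Klf10 was 1 of the 10 with the smallest ratio, at 301, 302 and 302 CPM.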

How the data were processed

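RNA from 3 NP-positive cell fractions gave SMART-Seq v4 cDNA libraries, read in 150 bp pairs. The values used are the deposited counts per gene; per the submitters' processing notes, reads were trimmed with Trimmomatic 0.036, aligned with STAR 2.5.2b to GRCm38 and counted by featureCounts of Subread 1.5.2. No annotation release, strand setting or treatment of multi-mapping reads is given in the sources used here, so genes that overlap, lie antisense or have near copies are uncertain. Of 49315 genes, 48970 matched a symbol. CPM used all gene counts; TPM used 43110 genes of at least 200 bases, leaving out 6205 shorter genes with 0.149% of the counts. Spread was estimated with edgeR 4.0.16 (intercept-only design, TMM scaling, filterByExpr). Scripts ran in Python 3.11.15 and R 4.3.3 and were tested on simulated data. Principal transcripts were the APPRIS ones of GENCODE M21. Where a gene had none, the longest transcript of its basic set was taken, or else its longest transcript. The 3 libraries are of separate tumours, and reads carry no molecular identifiers, so count limits cover counting error only. No test was made.

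The libraries, lists and alternatives were chosen with earlier results of these data known. Genes were named by rule: the 20 highest by CPM and by TPM; up to 8 highest of each of 61 lists and members under 1 TPM in every library; Pecam1, Cdh5, Kdr, Plvap, Ptprc and Epcam; the 10 widest ratios from 10 CPM and the 10 smallest from 100 CPM; and the 5 largest rank gains and losses. Calcrl, Emcn, Esm1, Fn1, Itgav, Mki67, Mmp14, Mmp2, Pdgfb, Ramp2, Sele, Stab1, Tal1, Top2a, Vcam1, Vegfa, mt-Atp6 and mt-Co2 fell outside it and were chosen after their values were seen. So were the sets of 4 class II, 3 class I, 3 chemokine and 8 immediate-early genes that are summed, and the ratios between pairs of genes. Some genes chosen this way are left unreported. RefSeq promoter windows (GRCm38.p6) were matched by symbol.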

Additional observations from a re-analysis of the deposited data

How the results depend on the processing

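The number of expressed genes was 12493 at 1 CPM, 9526 at 5 TPM, 15088 by a mean of 1 TPM and 12873 with principal transcript lengths, an alternative chosen after seeing the data; without 1 library it ran from 13726 to 13917. The biological coefficient of variation rose to 0.544 with no filter on low counts, over 41427 genes, and was 0.154 from a mean of 5 CPM; without 1 library it ran from 0.181 (without MET-107) to 0.265. With RLE scaling it was 0.224 and with total counts 0.226. The other summary values stayed near: the 50 highest by CPM and by TPM shared 29 to 32 genes, 759 to 781 genes held 50% of counts, and the 10 highest genes held 5.63 to 5.80% of counts. With principal transcript lengths 66 of 490 named genes moved by over 1.5 times, 48 up and 18 down, and merged exons exceeded the principal transcript by over 1.5 times in 29.5% of expressed genes, so TPM orders between genes carry that uncertainty. TMM scaling moved none of the 490. Without MET-106, MET-107 or MET-108 the mean TPM of 5, 15 and 4 of them fell by over 1.5 times, to 0.424, 0.310 and 0.515 times the full mean at the lowest; those with levels in the report were Col3a1 without MET-106, and Cd74, H2-Aa, H2-Ab1, H2-Eb1, Cxcl9, Cxcl10, Cxcl11, Epcam, Rps19-ps6 and Gm13456 without MET-107. The count of expressed members was moved in 17 of 61 lists at 5 TPM and in 4 at 1 CPM; at 5 TPM there were 9 chemokines, 8 HOX, 8 FOX, 5 Eph receptor and ephrin, 6 complement and 1 Wnt list genes. No paired analysis was possible because no comparison between groups was made. With 3 libraries an SD is itself imprecise.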

Other observations

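Genes of protein secretion, glycolysis and the cytoskeleton were high in all 3 NP-positive libraries. Of 23 genes of folding in the endoplasmic reticulum 22 were expressed, with Hspa5, the chaperone BiP, at 1874, 1607 and 1852 TPM, Pdia3, a disulfide isomerase, at 1431, 1542 and 1449 TPM and P4hb, a subunit of the enzyme that hydroxylates collagen, at 1112 ± 64.3 TPM. Serpinh1, the collagen chaperone HSP47, had 391 ± 32.3 TPM. Of 18 glycolysis genes 16 were expressed, led by Pkm, the muscle form of pyruvate kinase, at 1758, 1609.8 and 2022 TPM and Ldha, lactate dehydrogenase A, at 1707, 1841 and 1825 TPM. Gapdh had 1357 ± 98.1 TPM by merged exons and 2834 TPM by its principal transcript. All 28 actin cytoskeleton genes were expressed, with Actg1 at 4165, 4087 and 4363 TPM, Myl6, a myosin light chain, at 3821, 4339 and 3816 TPM and Tpm4, a tropomyosin, at 2639.6 ± 70.7 TPM. All 20 lysosome genes were expressed, among them Psap, which activates sphingolipid enzymes, at 974 ± 149 TPM and Cd63, a tetraspanin of late endosomes, at 829.5 ± 88.7 TPM. Of 91 cytosolic ribosomal protein genes 87 were expressed. By CPM 82 of the 87 were highest in MET-107, against 5244 of the 13342 expressed genes. The 91 genes summed to 52328, 57272 and 55736 TPM.

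Long noncoding RNAs held a small part of the profile. Malat1, a nuclear RNA, had 1264, 921 and 894 TPM, and Gm42418 and Gm26917 had means of 5356 and 2181 TPM. Both of the latter lie on the plus strand of chromosome 17, where Gm26917 ends at 39846341 and Gm42418 starts at 39846958. Gm42418 is the gene named above for its overlap with ribosomal RNA sequence. Whether reads of Gm26917 share that source was not tested. AW112010 had 434, 916 and 419 TPM, highest in MET-107 like the MHC class II genes. Bvht, known from cardiac development, had 182, 203 and 235 TPM. Gas5, the host of small nucleolar RNAs, had a mean of 198 TPM by merged exons. By the transcript of 665 bases that was taken as principal for this noncoding gene it had 802 TPM.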
